A study of Mus musculus with 4 samples.

Results

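Autophagy and lysosome genes were followed through fasting and re-feeding in mouse liver. The animals were C57BL/6J males, 8 to 12 weeks old. The members were chosen by gene name: all gene spots of the array named for the Atg genes, Ulk1, Ulk2, Becn1, the Gabarap and Map1lc3 genes, Wipi1, Wipi2, Sqstm1, Lamp1, Lamp2, the cathepsins A, B, D, H, L, S and Z, and the subunits and accessory proteins of the vacuolar proton pump (Atp6v and Atp6ap). The names gave 60 of the 31829 gene names on the array, measured by 75 of 39429 probes. The same name rule includes Tfeb and Tfe3, which matched no spot name and were not analysed here. All mice lost access to food for 24 h. The fasted group was then killed, and the re-fed group was first given food for 2 h, so that fasting for 24 h is shared by both groups and the contrast is re-feeding. RNA of 4 fasted and 4 re-fed livers, each from 1 animal, was measured on 4 two-colour arrays. Each array held 1 fasted and 1 re-fed liver, paired at random, with the fasted liver in the dye Cy5 on arrays 1 and 2 and in Cy3 on arrays 3 and 4. Each array gives 1 ratio per probe, and all ratios below are log2 of fasted over re-fed liver, so that a positive value means more RNA in the fasted liver.

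Macroautophagy is the route by which a cell encloses part of its cytoplasm in a membrane, the autophagosome, and delivers it to the lysosome for breakdown. A kinase complex around Ulk1 starts the membrane, lipid-binding and lipid-transferring proteins such as the Wipi and Atg2 proteins let it grow, and ubiquitin-like conjugation attaches proteins of the Atg8 family (the Gabarap and Map1lc3 proteins) to it. In the lysosome, which the vacuolar proton pump acidifies, cathepsins cut the delivered protein. Liver is a classical site of this process, which supplies amino acids and lipids during a fast and which insulin and amino acids restrain after a meal. These statements are background and were not measured on the arrays, which show RNA levels only.

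A probe was kept if every array gave a value for it and if, in fasted livers or in re-fed livers, all 4 signals stood well above background. Of the 60 genes, 51 had such a probe (65 probes), beside 16054 genes and 19721 probes on the whole array. The 9 genes without one were the autophagy genes Atg4a and Atg9b and the proton pump genes Atp6ap1l, Atp6v0a4, Atp6v1b1, Atp6v1c2, Atp6v1e2, Atp6v1g2 and Atp6v1g3. Several of these pump subunits are known for expression in kidney, testis or brain. Atp6v0e2 was kept through the fasted livers only, since its probe was well above background in 3 of 4 re-fed livers.

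The tissue label was checked against marker genes. All 10 hepatocyte markers were kept, with mean ratios of 0.15, 0.34, 0.076 and 0.10 on arrays 1 to 4, and 2 of them passed the test, Tat (0.84, adjusted p = 0.045) and Cps1 (0.31, adjusted p = 0.076). Of the markers of pancreatic acinar cells, 4 of 12 were kept, and their mean log2 ratio was -3.26 on array 3 against 0.039 to 0.056 on the other arrays. Their summed level in re-fed livers ran from 1130 to 18835, while in fasted livers it ran from 1224 to 1708, so that the re-fed liver of array 3 stands apart. The 6 kept blood markers had means of 0.94, -0.32, 1.28 and 0.29 on arrays 1 to 4. The 4 kept adipose markers of 7 had means of -0.020, 1.21, -0.28 and 0.58. Among them Plin4 passed the test (1.11, adjusted p = 0.071), while Plin1, also on the list, was not above background. The 9 kept endothelial and stellate markers of 10 had means between -0.069 and 0.20, but single genes went both ways. Stab2 passed the test (0.35, adjusted p = 0.048), Lyve1 had -1.26 on array 3 and 0.42 to 0.75 on the other arrays, and Lrat had a mean of -0.36 (adjusted p = 0.17). The part of these other cells in the results below was not tested. In whole liver, fewer cells of a type and less RNA per cell cannot be told apart.

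The genes that passed the test were all higher in fasted liver, and most members did not pass it. A gene enters here by its brightest kept probe, and "the test" is an adjusted p under 0.10 in limma, with adjustment over all kept probes. Of the 51 genes, 6 passed it with a higher level in fasted liver: the autophagy genes Ulk1, Atg16l2, Atg2a, Wipi1 and Gabarapl1 and the protease gene Ctsl. None passed it with a lower level. That is 11.8% of the measured members higher, against 4.96% of all genes, and 0 lower, against 6.33% of all genes. The members were chosen with earlier results of these data known, so these shares describe the members and are no independent test. At an unadjusted p under 0.05, 11 members were higher (21.6%, against 10.3% of all genes) and 3 were lower (5.88%, against 11.8%). A call in addition needs a change of at least 1.5-fold, which Ulk1, Atg16l2 and Ctsl reached (5.88% of members, against 1.82% of all genes called higher), and 0 members were called lower (against 2.13%). Which genes pass 1.5-fold depends on the processing: Ctsl was called in 11 of 19 alternatives, and with the authors' deposited ratios or without background correction the called genes were Ulk1, Atg16l2 and Wipi1. The median ratio was 0.044 over the 51 members and 0.0032 over all genes. Without array 3, whose re-fed liver carried the acinar RNA, the 6 ratios ran from 0.51 to 1.32 and 5 of the 6 genes still passed. With plain background subtraction, no background correction, the scanner software's processed signals or the authors' deposited ratios, 5 to 7 members passed higher. Median centring gave 4 higher and 1 lower, and a dye term in the model gave 11 higher and 3 lower (Atg3, Atg4c and Atp6v1g1). When the normexp correction was fitted to all spots, including the 55 of 177588 with extreme local background, 0 members passed the test. The ratios under that fit were 0.94 for Ulk1, 0.66 for Ctsl, 0.59 for Gabarapl1, 0.34 for Atg16l2, 0.26 for Wipi1 and 0.24 for Atg2a, with adjusted p-values from 0.15 to 0.56.

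**Figure D1:**
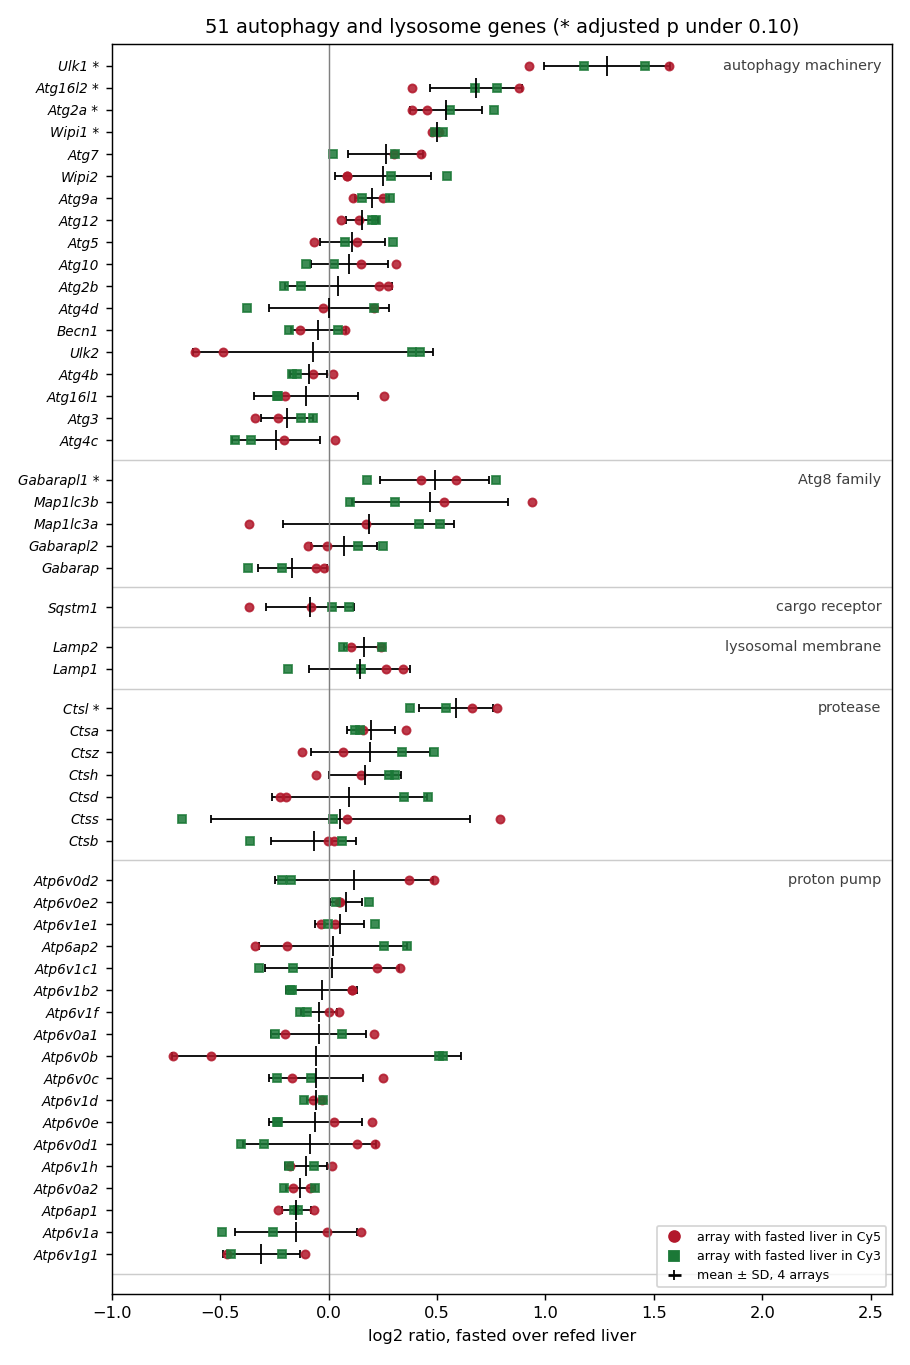
Log2 ratio of fasted over re-fed liver (x axis) for the 51 measured genes, grouped by role; points are the 4 arrays, coloured by dye orientation, and bars are the mean ± SD. The 6 genes with an asterisk passed the test and all lie to the right of 0, with Ulk1 farthest at 1.28, while the proton pump genes centre near 0.

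Ulk1, the kinase that starts autophagosome formation, had the largest ratio of any member. Its level, as log2 channel intensity, was 12.19, 12.25, 11.84 and 11.89 in the fasted livers of arrays 1 to 4 and 11.26, 10.68, 10.66 and 10.43 in the re-fed livers. Every fasted liver was above every re-fed liver. The log2 ratios were 0.92, 1.57, 1.18 and 1.46, with a mean of 1.28 ± 0.29 (SD, n = 4), which is 2.43-fold (adjusted p = 0.0062). Its paralog Ulk2 had a mean ratio of -0.074 ± 0.55 (adjusted p = 0.89), with values of -0.61 and -0.49 on the arrays with fasted liver in Cy5 and 0.39 and 0.42 on the arrays with it in Cy3, a pattern that turned with the dye. A second Ulk2 probe had a mean of -0.14 (adjusted p = 0.47).

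Atg16l2, a paralog of the Atg16l1 scaffold that carries the Atg5-Atg12 conjugate, was higher in fasted liver on 2 probes. Its brightest probe gave levels of 9.29, 8.78, 8.99 and 9.01 in fasted livers and 8.42, 8.39, 8.21 and 8.33 in re-fed livers. The groups did not overlap. The ratios were 0.88, 0.39, 0.77 and 0.67, with a mean of 0.68 ± 0.21 (1.60-fold, adjusted p = 0.020). The other probe, which lies on a different stretch of the transcript, gave 0.46, 0.39, 0.43 and 0.35, with a mean of 0.41 ± 0.048 (adjusted p = 0.027). Both probes therefore passed the test, but only the brightest passed 1.5-fold. Atg16l1 itself had a mean of -0.10 ± 0.24 (adjusted p = 0.65).

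Atg2a, a lipid-transfer protein that feeds the growing membrane, had levels of 9.11, 8.91, 9.01 and 9.07 in fasted livers and 8.72, 8.46, 8.45 and 8.31 in re-fed livers. All fasted livers were above all re-fed livers. The ratios were 0.39, 0.45, 0.56 and 0.76, with a mean of 0.54 ± 0.17 (1.46-fold, adjusted p = 0.025). Without array 3 the mean was 0.53 and the adjusted p was 0.11. Its paralog Atg2b had a mean of 0.044 ± 0.25 (adjusted p = 0.88), and its ratios also turned with the dye.

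Wipi1, which binds the phosphoinositide of the early autophagosome membrane, had the most even ratio of the members past the test. Its levels were 7.87, 7.66, 7.91 and 7.89 in fasted livers and 7.39, 7.15, 7.42 and 7.37 in re-fed livers, without overlap. The ratios were 0.48, 0.51, 0.49 and 0.53, with a mean of 0.50 ± 0.021 (1.42-fold, adjusted p = 0.016). Its other probe gave 0.17, 0.22, 0.47 and 0.45, with a mean of 0.33 ± 0.16 (adjusted p = 0.082). Wipi2, a relative that recruits Atg16l1, had a mean of 0.25 ± 0.22 (adjusted p = 0.22).

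**Figure D2:**
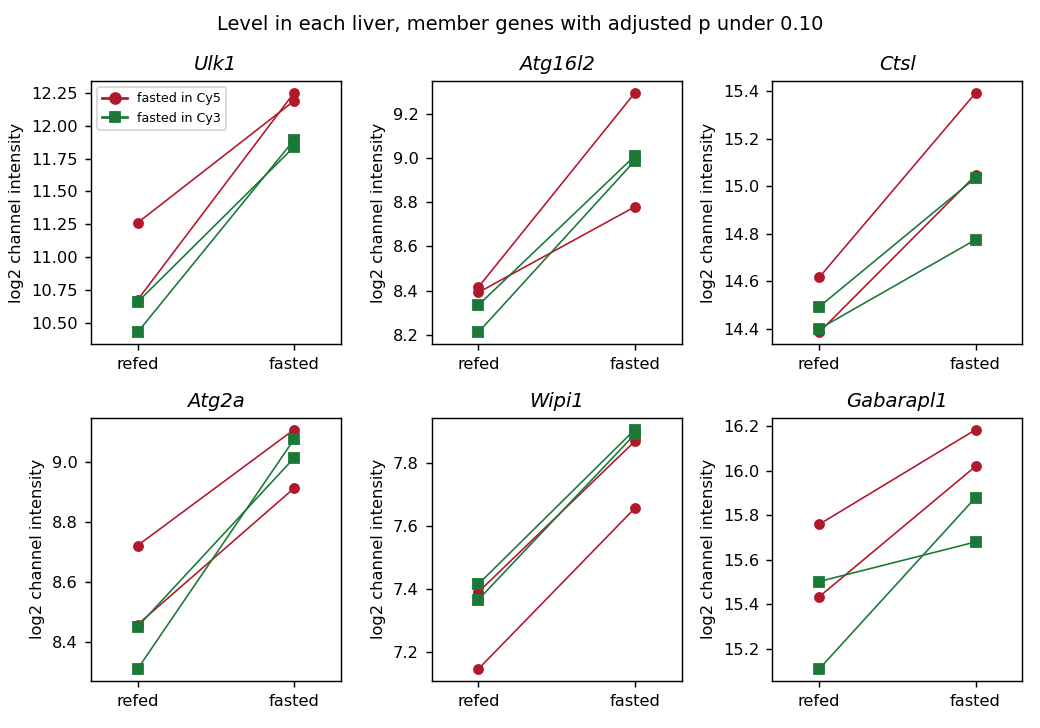
Level in each liver, as log2 channel intensity, of the 6 genes that passed the test; each line joins the re-fed and the fasted liver of 1 array, coloured by the dye of the fasted liver. Every line rises toward the fasted liver, and Gabarapl1 alone among the 6 has overlapping groups, with a lowest fasted level of 15.68 and a highest re-fed level of 15.76.

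The 5 genes of the Atg8 family, whose proteins are tethered to the autophagosome membrane and dock cargo receptors, were unevenly placed. Gabarapl1 had levels of 16.18, 16.02, 15.68 and 15.88 in fasted livers and 15.76, 15.43, 15.50 and 15.11 in re-fed livers. These groups overlapped, although the fasted liver was the higher on every array. The ratios were 0.43, 0.59, 0.18 and 0.77, with a mean of 0.49 ± 0.25 (adjusted p = 0.056). Leaving out array 1, 2 or 4 gave adjusted p-values of 0.11, 0.18 and 0.17, so that this gene passed the test only with all arrays or without array 3.

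Map1lc3b, the most used marker of autophagosomes at the protein level, had ratios of 0.53, 0.94, 0.31 and 0.099. Its mean of 0.47 ± 0.36 was close to that of Gabarapl1, and its adjusted p of 0.12 missed the threshold. It passed in 3 of 19 alternatives, with a dye term in the model (adjusted p = 0.018), in the rebuilt SAM (0.045) and with the processed signals (0.095). The fasted liver was above its re-fed partner on 4 of 4 arrays, but the groups overlapped. Map1lc3a had a mean of 0.18 ± 0.39, Gabarapl2 had 0.071 ± 0.15 and Gabarap had -0.17 ± 0.16, and none of these passed the test (adjusted p of 0.56, 0.71 and 0.34). Gabarap was below 0 on every array, and its second probe also had a negative mean of -0.16 (adjusted p = 0.28).

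The other 14 genes of the autophagy machinery did not pass the test. Atg7, the activating enzyme of both conjugation systems, had a mean of 0.26 ± 0.17 (adjusted p = 0.15) with non-overlapping livers, while its other probe had 0.049 (adjusted p = 0.77). Atg9a, the membrane protein of the vesicles that seed the autophagosome, had 0.20 ± 0.080 with overlapping livers. Atg12, the ubiquitin-like partner of Atg5, had 0.15 ± 0.072 with non-overlapping livers, and its other probe had 0.17 ± 0.52 (adjusted p = 0.68) with overlapping livers. Atg5 and Atg10, the partner of Atg12 and the enzyme that joins them, had 0.11 and 0.095. At the low end stood Atg4c at -0.24 ± 0.20, Atg3, which transfers Atg8 proteins to lipid, at -0.19 ± 0.12, and Atg16l1 at -0.10. Atg4c and Atg4b are proteases that trim Atg8 proteins, and Atg4b had -0.092 ± 0.084. Atg4d was at 0.0030 and Becn1, a subunit of the lipid kinase complex that acts after Ulk1, was at -0.049 ± 0.13. Over all 18 measured genes of the machinery the median was 0.10, with 12 above 0 and 6 below. Sqstm1 (p62), the cargo receptor that is itself degraded with its cargo, had a mean of -0.085 ± 0.20 (adjusted p = 0.68), with ratios of -0.081, -0.37, 0.014 and 0.095.

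Among lysosomal proteases, Ctsl was the member that passed the test. Cathepsin L is a cysteine protease of the lysosome. The fasted livers had levels of 15.39, 15.05, 15.04 and 14.78, all above the re-fed livers at 14.62, 14.39, 14.49 and 14.40. The ratios were 0.78, 0.66, 0.54 and 0.38, with a mean of 0.59 ± 0.17 (adjusted p = 0.021). The mean sat just past the limit for a call, a log2 ratio of 0.58, and with median centring of the arrays in place of loess it was 0.43 with an adjusted p of 0.101.

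The other 6 proteases did not pass. Ctsa, a serine carboxypeptidase, had a mean of 0.20 ± 0.11 with non-overlapping livers, and its other probe had 0.23 ± 0.075 (adjusted p of 0.21 and 0.13). Ctsz and Ctsh, both exopeptidases of the cysteine class, had 0.19 ± 0.27 and 0.17 ± 0.16. Ctsb, an abundant cysteine protease of liver, had -0.069 ± 0.20. Ctsd, the aspartic protease, had 0.096 ± 0.36, with negative ratios on arrays 1 and 2 and positive ratios on arrays 3 and 4. The median over the 7 proteases was 0.17.

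Ctss, a cysteine protease known from macrophages and other antigen-presenting cells, had the widest spread of the proteases. Its ratios were 0.79, 0.083, 0.018 and -0.67, with a mean of 0.054 ± 0.60 (adjusted p = 0.93). The 11 kept markers of Kupffer cells, the resident macrophages of liver, had mean ratios of 0.40, -0.23, 0.42 and -0.19 on the same arrays. Their summed level lay between 15669 and 21811 in fasted livers and between 10762 and 18954 in re-fed livers. The signs of Ctss and of this list matched on arrays 1, 3 and 4 and not on array 2, but Ctss was close to 0 on arrays 2 and 3. The part of macrophage content in the Ctss values was not tested.

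The lysosomal membrane glycoproteins Lamp1 and Lamp2, which line the inner face of the lysosome, had means of 0.14 ± 0.23 and 0.16 ± 0.092 and did not pass the test (adjusted p of 0.50 and 0.27). Lamp2 was above 0 on every array, and its second probe had a mean of 0.10.

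The proton pump genes were 18 of the measured members, and 0 of them passed the test, against 4.96% of all genes higher and 6.33% lower, a share at which few of 18 genes would pass. The pump has a V1 sector in the cytosol, which splits ATP, and a V0 sector in the membrane, which carries the protons. Over the 18 genes the median was -0.058, with 5 above 0 and 13 below. The V0 genes (8 measured: Atp6v0a1, Atp6v0a2, Atp6v0b, Atp6v0c, Atp6v0d1, Atp6v0d2, Atp6v0e and Atp6v0e2) ran from -0.13 to 0.12, and their median was -0.058. The V1 genes (8 measured: Atp6v1a, Atp6v1b2, Atp6v1c1, Atp6v1d, Atp6v1e1, Atp6v1f, Atp6v1g1 and Atp6v1h) ran from -0.31 to 0.051, with a median of -0.053. The medians of the sectors were close to each other.

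Atp6v1g1, a subunit of the stalk that links the sectors, was the lowest of all members. Its levels were 10.85, 10.78, 10.90 and 11.13 in fasted livers and 10.95, 11.25, 11.35 and 11.35 in re-fed livers. The fasted liver was the lower on 4 of 4 arrays, and the groups overlapped. The ratios were -0.11, -0.47, -0.45 and -0.22, with a mean of -0.31 ± 0.18 and an adjusted p of 0.11, which missed the threshold. It passed as lower in 4 of 19 alternatives: with a dye term in the model (adjusted p = 0.053), in the rebuilt SAM (0.048), with median centring (0.027) and without array 1 (0.098). The accessory proteins Atp6ap1, which helps assemble the pump, and Atp6ap2, also known as the prorenin receptor, had means of -0.15 ± 0.067 and 0.022 ± 0.34.

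Several pump genes had ratios that turned with the dye. A dye effect, tested as a second term (Cy5 over Cy3) in the limma model, had an adjusted p under 0.10 for 8 of 51 members (15.7%), the share found over all genes (15.3%). Of these, 5 were pump genes (27.8% of the 18): Atp6v0b, Atp6v0d1, Atp6v0d2, Atp6v1c1 and Atp6ap2. The others were Ulk2, Atg2b and Ctsd. These counts use the brightest probe of each gene. The second probes of Ulk2 and Ctsd had no dye effect (adjusted p of the dye term 0.74 and 0.35), while the second probe of Atg12 had one (0.046). Atp6v0b, a subunit of the membrane ring, was the clearest, with ratios of -0.72 and -0.54 with fasted liver in Cy5 and 0.51 and 0.53 with it in Cy3 (adjusted p of the dye term = 0.013). Its mean over the swap was -0.058 ± 0.67, so that its SD holds the dye effect and the fasting ratio is imprecise. Of the 6 genes that passed the test for fasting, 0 had a dye effect. With the scanner software's own processed signals, 1 member had a dye effect.

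**Figure D3:**
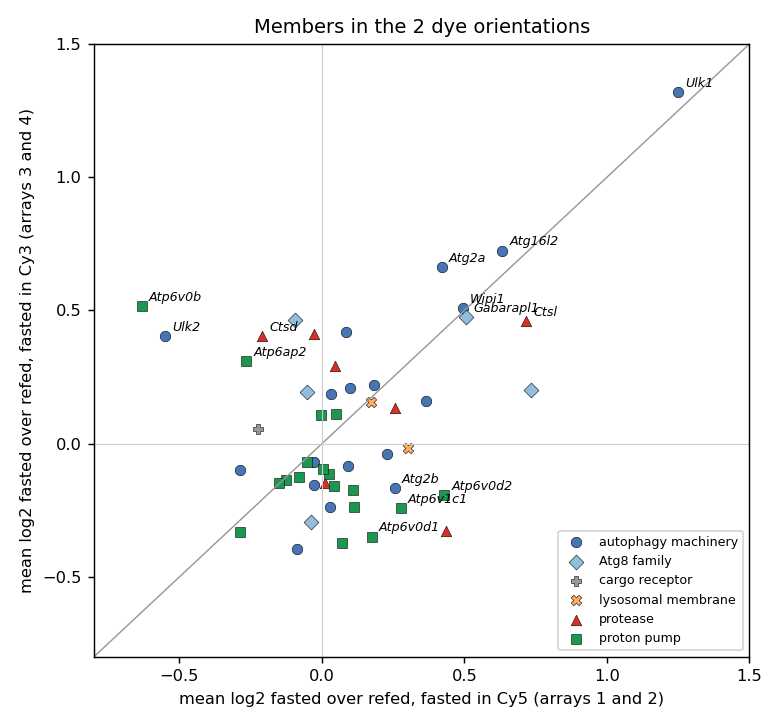
Mean log2 ratio of fasted over re-fed liver on the arrays with fasted liver in Cy5 (x axis) and in Cy3 (y axis) for the 51 genes, with symbols for their roles; genes past the test for fasting or for dye are named. The 6 genes past the test for fasting lie near the diagonal in the upper right, and genes such as Atp6v0b (negative on the x axis, positive on the y axis) lie far from it.

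The separation of the livers gave a similar split of the members. All 4 fasted livers were above all 4 re-fed livers for 8 members (15.7%, against 6.04% of all genes): Ulk1, Atg16l2, Atg2a, Wipi1, Atg7, Atg12, Ctsl and Ctsa. The reverse order was found for 0 members, against 7.78% of all genes. No proton pump gene was in either set. Of the 51 genes, 14 had more than 1 kept probe, and in 0 of these did the probes differ in sign or in passing the test.

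Promoters of the members were read because lysosomal genes are known to share the CLEAR element, a target of Tfeb, whose core is the palindrome TCACGTGA. The sequences are those of RefSeq in GRCm38.p6, 250 bases before to 50 bases after each listed gene start, and 47 of the 60 genes had at least 1 (53 promoters). The core was found in 6 of 53 promoters (11.3%), against 0.974% of all 32851 promoters. The 6 genes are shown because they carry the element. Capitals mark the core, and each stretch is given 5′ to 3′ on the strand of the gene:
Atg3, chr16:45158737-45158779, plus strand: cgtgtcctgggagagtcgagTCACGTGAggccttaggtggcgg
Atp6v0d1, chr8:105566046-105566088, minus strand: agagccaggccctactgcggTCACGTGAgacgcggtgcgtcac
Atp6v0e, chr17:26676378-26676420, plus strand: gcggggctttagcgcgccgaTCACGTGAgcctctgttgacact
Atp6v1a, chr16:44139369-44139411, minus strand: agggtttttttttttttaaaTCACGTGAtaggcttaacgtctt
Ctsa, chr2:164833740-164833799, plus strand: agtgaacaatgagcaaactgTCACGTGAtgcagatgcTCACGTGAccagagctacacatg
Ctsd, chr7:142387904-142387946, minus strand: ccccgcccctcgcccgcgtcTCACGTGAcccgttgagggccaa

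These 6 genes had ratios between -0.19 and 0.20, with adjusted p-values from 0.21 to 0.79. With 6 genes, and 11.3% of all genes past the test in either direction, no reading can be taken from 0 of 6 passing. The shorter E-box CACGTG, which the core contains, was found in 11 of 53 member promoters (20.8%, against 7.15% of all). Ctsl was the only one of the 6 genes past the test with it. A motif match describes letters in a window and shows neither binding nor use.

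Since the study concerns the factor CREB, the full cAMP response element TGACGTCA was searched on both strands as well. It was found in 2 of 53 member promoters (3.77%, against 1.79% of all promoters), those of Atg16l2, which passed the test, and Atg5, which did not. They are shown with the element in capitals:
Atg16l2, chr7:101302084-101302126, minus strand: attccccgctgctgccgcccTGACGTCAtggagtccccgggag
Atg5, chr10:44268318-44268360, plus strand: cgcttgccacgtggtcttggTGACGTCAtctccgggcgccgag
The forkhead motif TGTTTAC, bound by FoxO factors, was found in 1 of 53 member promoters (1.89%), that of Atp6v1b1, which was not kept, against 3.65% of all promoters. Of the 6 genes past the test, 0 had it in the window.

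The probes behind the 6 genes are shown by the first 30 of their 60 bases, with positions in mm9, the build of the files. The files do not state the exon or other transcript part of a probe. For Atg16l2 and Wipi1 both probes are shown, since each passed the test:
Ulk1, chr5:111213514-111213573, minus strand: gtgagtctcccccttttgtgtttcactgtg
Atg16l2, brightest probe, chr7:108438181-108438240, minus strand: caggacctggcctgtttgttaaaaatcaaa
Atg16l2, other probe, chr7:108438916-108439146, minus strand: cacactcaaggttatcgacctgcgaatcag
Atg2a, chr19:6261741-6261800, plus strand: aacatccaacgtgctagggggcatgcgtaa
Wipi1, brightest probe, chr11:109435140-109435199, minus strand: tgtcaggtggttttggagagaacgaggaaa
Wipi1, other probe, chr11:109443686-109443745, minus strand: gtgtgcctccagcaacacggagaccgtgca
Gabarapl1, chr6:129492254-129492313, plus strand: caatctgtacgtctgttttgtcagcttcag
Ctsl, chr13:64465287-64465346, minus strand: accaaacccttattgagtcaaaccatggta

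The rest of the pathway was read from lists of 132 further genes, of which 126 were kept. These lists were chosen with earlier results of these data known, so the shares below describe the lists and are no independent test. Here 16 genes (12.7%, against 4.96% of all genes) were higher in fasted liver and 5 (3.97%, against 6.33%) were lower. Of these, 5 were called higher (Trp53inp1, Flcn, Retreg1, Slc15a4 and Cln8; 3.97%, against 1.82% of all genes) and 1 was called lower (Tmem41b; 0.794%, against 2.13%). A dye effect was found for 5 of the 21 genes past the test, Trp53inp1, Retreg1, Slc15a4, Tmem41b and Tbc1d15, which include 4 of the 6 called genes. Their ratios kept 1 sign on all arrays but differed in size between the dye orientations. Among the genes past the test, fasted and re-fed livers overlapped for Retreg1, Fnip1, Ctso, Neu1 and Slc36a1. The median ratio over the 126 genes was 0.099. With normexp fitted to all spots 0 were higher and 0 lower, with median centring 5 were higher, and with a dye term 36 were higher and 9 were lower. Without array 2, 3 or 4 the genes that were higher numbered 5, 4 and 7, and without array 1 they numbered 12.

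Among the further lists, the regulators held the largest positive mean ratio and the highest median. Trp53inp1, a stress protein that binds Atg8 proteins, had ratios of 2.03, 3.0, 0.85 and 1.11, with a mean of 1.75 ± 0.98 (adjusted p = 0.041). Its livers did not overlap, although the arrays with fasted liver in Cy5 gave the larger ratios and its dye term had an adjusted p of 0.051. Flcn (folliculin), which acts on the Rag GTPases that place mTORC1 on the lysosome, had 0.64, 1.0, 0.90 and 0.88, with a mean of 0.85 ± 0.15 (adjusted p = 0.0071). Its partner Fnip1 had a mean of 0.45 ± 0.23 (adjusted p = 0.064). Tsc1, a brake on mTORC1, had 0.37 ± 0.097 (adjusted p = 0.045), Tbc1d15, which acts on Rab7, had 0.48 ± 0.26, and Trp53inp2, a relative of Trp53inp1, had 0.40 ± 0.21. Over the 16 measured regulators 6 were higher (37.5%, against 4.96% of all genes) and 0 were lower (against 6.33%). The list was chosen with earlier results of these data known, so this share is no independent test. The median was 0.38, against 0.0032 over all genes, with 12 ratios above 0 and 4 below. Ddit4 and Foxo1 enter this median and did not pass the test. Ddit4 had ratios of 2.90, 1.33, -0.67 and -0.69, which turned with the dye, and Foxo1 had a mean of 0.62 (adjusted p = 0.12).

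Of the 11 further cargo receptors of autophagy that were measured, 4 were higher (36.4%, against 4.96% of all genes) and 1 was lower (9.09%, against 6.33%). Retreg1, a receptor for endoplasmic reticulum, had ratios of 1.08, 1.05, 0.51 and 0.69, with a mean of 0.83 ± 0.28 (adjusted p = 0.018). Optn, a receptor for ubiquitin-marked cargo, had 0.44 ± 0.083, Bnip3l, a mitochondrial receptor, had 0.36 ± 0.081 and Calcoco1 had 0.31 ± 0.13 (adjusted p of 0.026, 0.044 and 0.079). Fundc1, another mitochondrial receptor, was lower at -0.50 ± 0.17 (adjusted p = 0.032). Bnip3l and Fundc1 thus differed in sign.

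Of 18 further genes of initiation and membrane growth, Rb1cc1, the scaffold of the Ulk1 complex, was higher (0.33 ± 0.16, adjusted p = 0.084; 5.56% of the list, against 4.96% of all genes) and Tmem41b, a lipid scramblase of the endoplasmic reticulum, was lower (5.56%, against 6.33%). Both shares were near those over all genes. The ratios of Tmem41b were -0.88, -0.61, -1.31 and -1.32, with a mean of -1.03 ± 0.35 (adjusted p = 0.016). Every re-fed liver was above every fasted liver for it. Of the 12 genes of membrane fusion 0 passed the test, against 4.96% of all genes higher and 6.33% lower. At these shares few of 12 genes would pass, so no reading can be taken from it.

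Lysosomal enzymes outside the member list mostly did not pass the test. Of 31 hydrolases 1 was higher (3.23%, against 4.96% of all genes), the sialidase Neu1 (0.27 ± 0.10, adjusted p = 0.094), and of 10 further proteases 1 was higher (10%), Ctso (0.32 ± 0.14, adjusted p = 0.079). Of 28 membrane and sorting proteins, 3 were higher and 3 were lower (10.7% each, against 4.96% and 6.33% of all genes). Npc1, which exports cholesterol from the lysosome, had 0.55 ± 0.23 (adjusted p = 0.034), Cln8, which helps lysosomal enzymes leave the endoplasmic reticulum, had 0.63 ± 0.17 (adjusted p = 0.017) and the transporter Slc15a4 had 0.79 ± 0.49 (adjusted p = 0.060). The amino acid transporter Slc36a1 had -0.56 ± 0.35, the cation channel Tpcn1 had -0.26 ± 0.086 and the sorting adaptor Gga3 had -0.52 ± 0.15 (adjusted p of 0.069, 0.0998 and 0.026).

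**Figure D4:**
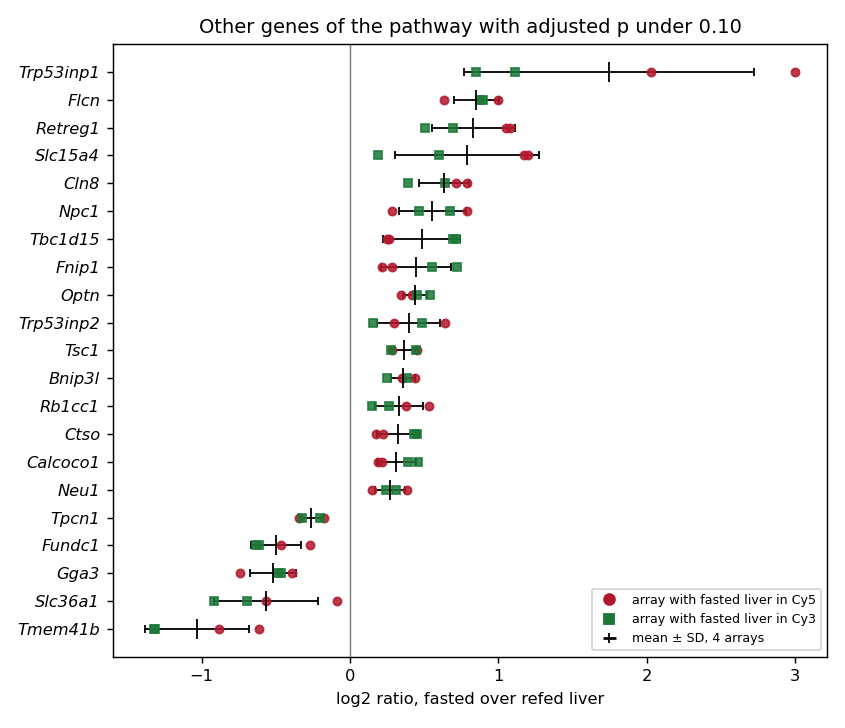
Log2 ratio of fasted over re-fed liver (x axis) for the 21 further pathway genes that passed the test; points are the 4 arrays, coloured by dye orientation, and bars are the mean ± SD. Trp53inp1 has the largest mean (1.75) and the widest spread, and Tmem41b the lowest mean (-1.03).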

How the data were processed

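Probe intensity was measured on 4 Agilent two-colour arrays; the authors deposited the scanner output (Feature Extraction 10.10.1.1 per the file headers), with spot intensity and local background intensity per channel, and a table of log2 ratios that the authors normalized by loess in limma. Median signals were read here with limma 3.58.1 in R 4.3.3. Spots with local background over 3 times the array median were left out (55), followed by normexp (offset 50), loess with control spots at weight 0, removal of flagged spots (197 to 322 per array; 0 saturated) and averaging of spots of a probe. Median signals of gene spots were 40 to 75 in red and 44 to 96 in green, and the number of arrays limits precision. lmFit and eBayes tested the 4 ratios, with Benjamini-Hochberg adjustment over 19721 probes, two-sided. Levels per liver are the average log2 intensity of both channels, scaled between arrays (Aquantile), with the ratio split evenly around it. Probes took names from RefSeq by accession (26055) or symbol (4125). Every kept member is named; values per array are given for members past the test, and for others of interest that were chosen after their values were seen. The members, the lists and the background limit were chosen with earlier results of these data known. Steps were tested on simulated data. Alternatives covered background, normalization, filters, dye, channels, SAM, probe choice, threshold and each array left out.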

Additional observations from a re-analysis of the deposited data

Results flagged for a closer look

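For 4 of the 51 members, the ratio on 1 array stood apart from the other 3. The measure was the gap to the nearest array as a share of the whole range. It was 0.928 for Atg16l1 (array 2 at 0.26, the others between -0.24 and -0.20), 0.862 for Atp6v0e2 (array 3 at 0.19, the others between 0.032 and 0.053), 0.848 for Ctsb (array 4 at -0.36, the others between -0.0016 and 0.063) and 0.846 for Ctsa (array 1 at 0.36, the others between 0.12 and 0.16). Chance marks about 1 in 20 genes in this way. None of the 4 genes passed the test.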

How the results depend on the processing

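The 6 ratios past the test stayed above 0 under all 19 alternatives, and none reversed. With normexp on all spots, a setting that differs only in keeping the 55 spots of high background, members past the test numbered 0 higher and 0 called, other pathway genes numbered 0 higher and 0 lower, and a dye effect was found in 5 members. The dye term in the model gave 11 members higher and 3 lower, and 36 other pathway genes higher and 9 lower. SAM rebuilt with 16 sign flips gave 9 members higher and 1 lower. Median centring in place of loess, which moved the median of all probes to -0.15 on array 1, gave 1 member lower (Atp6v1g1), 5 other pathway genes higher, and a dye effect in 2 members; the processed signals gave a dye effect in 1 member. An adjusted p under 0.05 left 8 other pathway genes higher and 3 lower. Leaving out 1 array gave 5 members higher each time, 0 to 1 lower and 2 to 4 called, and 4 to 12 other pathway genes higher and 1 to 4 lower. The cause was not tested. A fit of the channels as independent samples, with no replicate block pairing the livers of an array, gave the same counts, 6 higher and 3 called. Ulk1, Atg16l2 and Wipi1 lost the test under normexp on all spots only. Ctsl lost it there and under median centring, and Atg2a there and without array 3. Gabarapl1 kept it in 12 of 19. Of the 45 members that did not pass, 22 changed sign and 8 passed under at least 1 alternative. Values of the other pathway genes and of the dye effect under alternatives were added after seeing the data. Signals near background limit the dimmest probes: 9 members could not be measured.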
